A study of Mus musculus with 12 samples.

Results

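Chromatin accessibility was described around 10 immediate early genes of neuronal activity: Fos, Fosb, Fosl2, Jun, Junb, Egr1, Npas4, Arc, Nr4a1 and Bdnf. Peaks of open chromatin from 12 libraries were merged into regions where they overlapped by 1 bp or more, and the regions with any overlap with the body of a named gene, or with the 50 kb on either side of it, were taken. This gave 256 regions of 263785 in all. Of these, 105 lay in the gene bodies or within 10 kb, and 121 held a peak in all 12 libraries, as did 72465 of all regions.

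Openness was measured by ATAC-seq, where Tn5 transposase cuts accessible DNA and tags it with adapters. Primary cortical neurons were cultured from wild-type C57BL/6 mouse embryos of embryonic day 18 per the labels, and all 4 groups were exposed for 7 days. The control group received PBS. The PFF group received pre-formed fibrils of alpha-synuclein, which seed aggregation of the protein in neurons. The PFF+MLi-2 group received fibrils and MLi-2, which inhibits LRRK2 kinase, for the last 5 days, and the PFF+Rab5 ASO group received fibrils and antisense oligonucleotides (ASO) against the early endosomal GTPase Rab5 for the last 3 days. Each group had 3 libraries, and all carry the batch label 1. There was no group with MLi-2 or with the ASO in the absence of fibrils and no group with a control ASO, so an action of the added agent by itself cannot be told apart from an action on the response to fibrils. For the libraries given MLi-2 or the ASO, the free-text description says PBS while title and treatment label say PFF, and the titles were followed. Per the study's methods a replicate was the set of cultures from 1 pregnancy, and cultures were allotted to the groups at random. The labels do not tie a library or its number to a pregnancy, so whether same-numbered libraries share one is not given in the sources used here.

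Immediate early genes are switched on by synaptic activity and growth factors without new protein synthesis. Calcium entry and kinase cascades act on factors that already sit at their promoters and enhancers, among them CREB at the cyclic AMP response element (CRE), SRF with its ternary complex partners at the serum response element (SRE), and MEF2. Many of the products are transcription factors: FOS and JUN family proteins pair as AP-1, which binds enhancers of later genes. Others act at the synapse, such as ARC, which drives endocytosis of AMPA receptors, and BDNF, a secreted neurotrophin. In neurons the enhancers of these genes are known to be set up in advance, and the assay reads openness, not transcription.

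The libraries held 137417 to 184717 peaks each, with a median summit pileup of 16 to 18 fragments. Relative depth, read from the most frequent local background of a list and its shortest peak and scaled to a mean over the libraries, ran from 0.914 to 0.977 in PBS, from 0.773 to 0.920 in PFF, from 0.956 to 1.03 in PFF+MLi-2 and from 1.05 to 1.31 in PFF+Rab5 ASO. The median peak width was 135 to 139 bp in PFF and 112 to 124 bp in PFF+Rab5 ASO. All 9 neuronal marker genes had a start region with a peak in 12 libraries. Of the 4 microglial markers, 2 had a region, Csf1r in 7 libraries and P2ry12 in 3. Of the 4 astrocyte markers, 3 were open in all libraries, as were 3 of the 4 markers of the oligodendrocyte lineage, while Mog had no region. Other cell types in the cultures and their part in the results were not tested.

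The height of a peak was given by its fold enrichment over the local background, which was turned into a percentile of the library's own list, where 100 is the highest peak. Each gene had between 19 and 39 regions, with the fewest at Fos and Bdnf and the most at Fosb. Of the 256 regions, 36 lay within 1 kb of an annotated start of the gene itself, 72 within 1 kb of a start of another gene and 148 over 1 kb from every start. The crowded windows of Fosb and Junb held 23 and 20 of the regions at other genes. Peaks in all 12 libraries were found in 22 of 33 regions around Junb and in 5 of 21 around Fosl2, and 39 of the 256 regions were called in 1 library only.

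**Figure D1:**
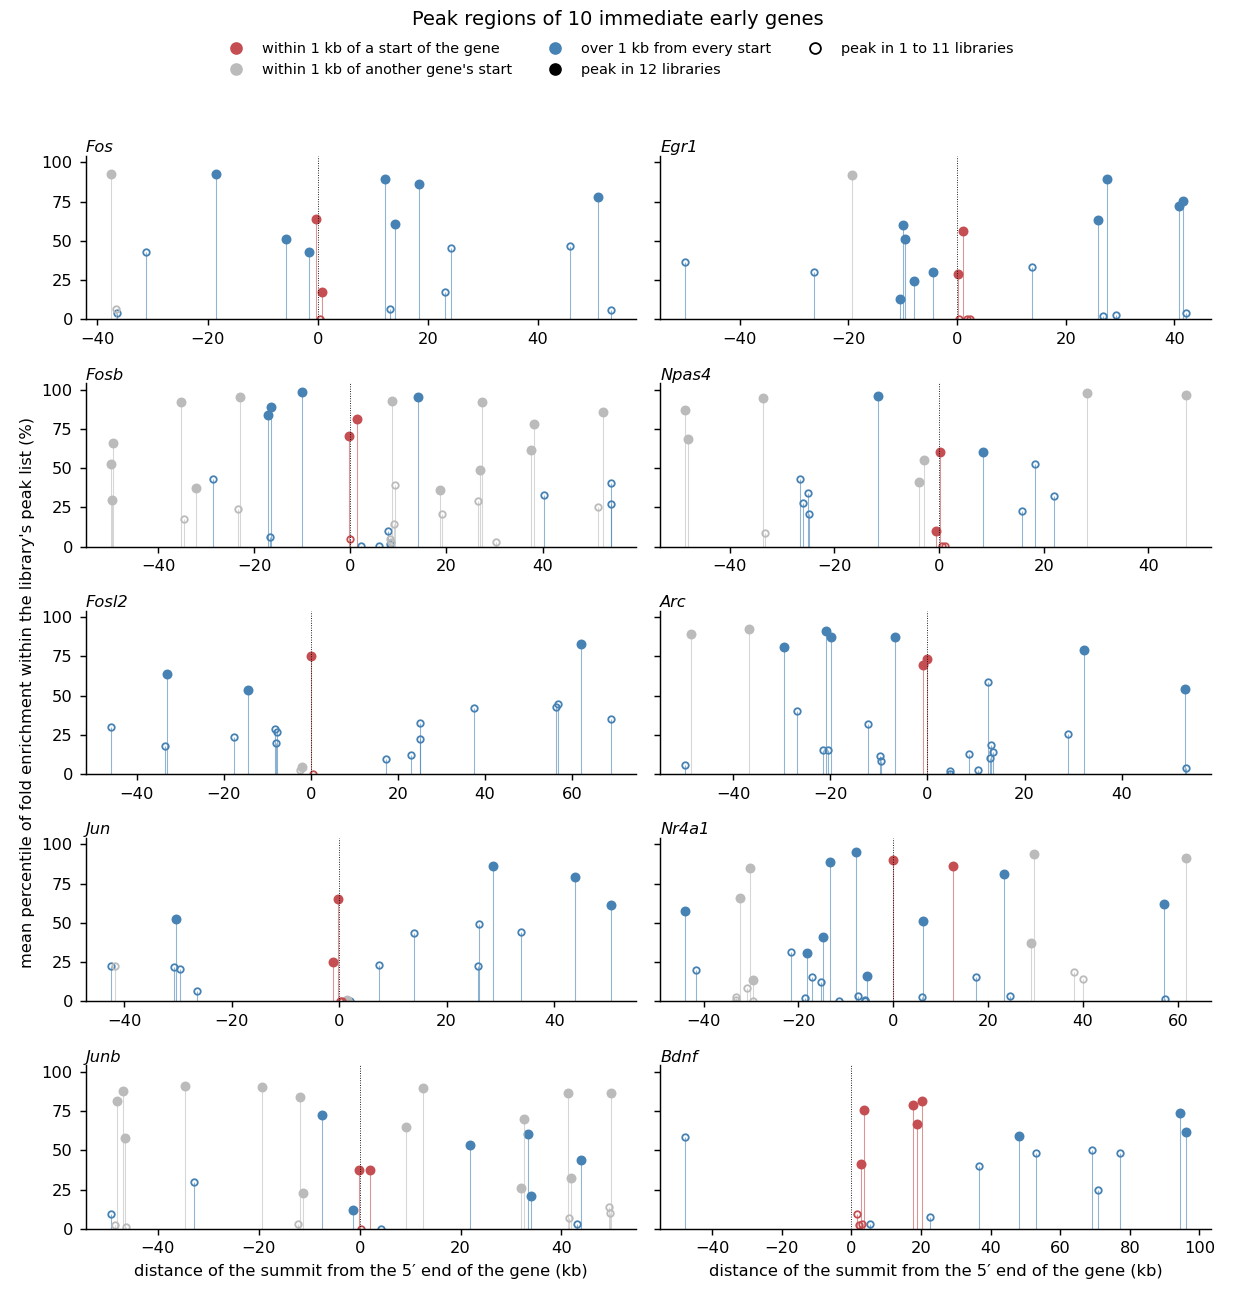
Mean percentile of fold enrichment within the libraries' own peak lists (vertical axis, %) of each of the 256 regions against the distance of its summit from the 5′ end of the gene (horizontal axis, kb), with 1 panel per gene; filled points are regions with a peak in all 12 libraries and open points those with fewer, coloured by their place at a start of the gene, at a start of another gene or over 1 kb from every start. The highest region is 10.0 kb upstream of Fosb (98.2), and several genes have upstream or downstream regions above their own start.

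The bases beneath the summits are shown for the start regions and enhancer-like distal regions that carry recognisable activity motifs, in GRCm38 and taken from the RefSeq sequence of assembly GRCm38.p6. Each window is 201 bp, written on the strand of the gene. Capitals mark the SRE (CC, then A or T bases, then GG), the CRE core pentamer (TGACG, written CGTCA on the opposite strand) and the MEF2 element. The first group holds start regions of Fos, Fosb, Arc and Npas4, each with an SRE, and those of Nr4a1, with a MEF2 element, and Jun, with CRE cores only. Start regions of Junb and Egr1 also hold an SRE and are not printed, nor is the best start region of Npas4, which holds CRE cores, and windows that overlap an annotated exon were left out.
Fos, 320 bp upstream, chr12:85473470-85473670, plus strand: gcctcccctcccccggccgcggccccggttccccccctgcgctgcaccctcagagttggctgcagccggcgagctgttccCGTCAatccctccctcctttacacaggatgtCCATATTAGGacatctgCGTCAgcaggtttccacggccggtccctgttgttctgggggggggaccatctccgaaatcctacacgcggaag
Fosb, 293 bp upstream, chr7:19310244-19310444, minus strand: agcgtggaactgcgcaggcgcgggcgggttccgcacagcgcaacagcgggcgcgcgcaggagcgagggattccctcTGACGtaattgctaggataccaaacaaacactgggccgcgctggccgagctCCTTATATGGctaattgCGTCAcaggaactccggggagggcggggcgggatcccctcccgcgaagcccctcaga
Arc, 922 bp upstream, chr15:74673392-74673592, minus strand: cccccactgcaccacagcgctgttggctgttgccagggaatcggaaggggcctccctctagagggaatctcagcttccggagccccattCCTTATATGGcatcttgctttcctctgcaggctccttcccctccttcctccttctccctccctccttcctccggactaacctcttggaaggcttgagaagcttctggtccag
Npas4, 659 bp upstream, chr19:4990875-4991075, minus strand: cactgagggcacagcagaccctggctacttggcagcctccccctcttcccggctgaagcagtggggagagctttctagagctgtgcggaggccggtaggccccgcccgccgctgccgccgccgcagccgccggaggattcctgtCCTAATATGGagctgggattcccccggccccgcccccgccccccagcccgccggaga
Nr4a1, 129 bp upstream, chr15:101254040-101254240, plus strand: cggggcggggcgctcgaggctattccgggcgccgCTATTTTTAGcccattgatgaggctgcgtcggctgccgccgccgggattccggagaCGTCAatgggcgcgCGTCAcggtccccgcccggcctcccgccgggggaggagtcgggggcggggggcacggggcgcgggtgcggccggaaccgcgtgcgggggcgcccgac
Jun, 267 bp upstream, chr4:95052389-95052589, minus strand: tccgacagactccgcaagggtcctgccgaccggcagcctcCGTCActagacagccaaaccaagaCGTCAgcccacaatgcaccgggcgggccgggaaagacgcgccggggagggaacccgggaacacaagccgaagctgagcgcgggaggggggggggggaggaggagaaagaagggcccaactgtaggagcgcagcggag

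The second group holds regions away from any gene start that are in all 12 libraries and carry both an SRE and a CRE core. They lie upstream of Arc, downstream of Fos and upstream of Npas4. Arc is known to have an upstream synaptic activity-responsive element bound by CREB, MEF2 and SRF, and whether the region shown is that element was not tested.
Arc, 6.7 kb upstream, chr15:74679215-74679415, minus strand: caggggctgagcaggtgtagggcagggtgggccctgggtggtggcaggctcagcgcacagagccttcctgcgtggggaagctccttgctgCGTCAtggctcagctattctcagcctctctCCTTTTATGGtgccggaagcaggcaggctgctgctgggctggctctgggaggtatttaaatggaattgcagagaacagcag
Fos, 12.2 kb beyond the start, chr12:85485990-85486190, plus strand: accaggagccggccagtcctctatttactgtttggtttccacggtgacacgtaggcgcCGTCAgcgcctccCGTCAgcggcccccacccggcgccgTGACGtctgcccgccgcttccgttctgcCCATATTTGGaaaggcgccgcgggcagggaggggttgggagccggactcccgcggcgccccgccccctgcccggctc
Npas4, 11.6 kb upstream, chr19:5001849-5002049, minus strand: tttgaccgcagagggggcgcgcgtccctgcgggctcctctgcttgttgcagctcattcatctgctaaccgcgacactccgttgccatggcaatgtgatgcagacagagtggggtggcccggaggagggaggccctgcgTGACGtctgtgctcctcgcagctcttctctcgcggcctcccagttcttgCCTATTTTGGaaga

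Motif letters were searched on both strands of the 201 bp around the summit. An SRE was found in 6 of the 36 regions at the genes' own starts (16.7%) and in 9 of the 121 member regions present in every library (7.44%). The same window held one in 0.929% of the 72408 regions present in all libraries for which bases could be read, and in 0.691% of the 18392 near protein-coding starts. The CRE core TGACG was found in 16 of 36 own starts (44.4%) and in 39 of 121 member regions (32.2%), against 12.3% of all regions present in every library and 22.8% of those near protein-coding starts. Only 22 of the 36 own starts were present in every library, so the 36 and these shares are unlike sets. Over all regions with a peak in any library the SRE was in 0.964% and the CRE core in 8.91%. The full palindrome, the core TGACG followed by TCA, was in 1 of 121 member regions (0.826%, against 0.902%). The AP-1 heptamer TGANTCA was in 6 of 121 (4.96%, against 8.92%), the E-box CACGTG in 7 (5.79%, against 4.43%) and MEF2 in 3 (2.48%, against 1.12%). The EGR motif, GCG then TGGGCG, was in 0 of 121, against 0.309% of all. These are matches of letters, and no binding was measured.

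At most of the genes the best start region had a high pileup on a high local background. At the start of Fos the summit pileup was 49 to 66 fragments per library, and at the start of Jun it was 75 to 87. By pileup the start region of Jun stood at percentile 99.9, that of Egr1 at 99.5, that of Fosl2 at 99.5, that of Fosb at 99.1, that of Npas4 at 98.2 and that of Fos at 96.8, as means over the 12 libraries. By fold enrichment the same regions stood at 65.2, 56.5, 75.1, 81.1, 60.2 and 63.6. Arc stood at 98.0 by pileup and 73.3 by fold, and Junb had the widest gap, at 98.2 and 37.7. Nr4a1 and Bdnf differed from these, at 93.4 and 85.8 by pileup and 89.9 and 81.1 by fold, on backgrounds of only 3.67 to 4.79 and 2.98 to 3.81 fragments. The median local background of the 22 own-start regions present in all libraries was 8.05 to 9.78 fragments, compared with 3.61 to 4.38 at regions near protein-coding starts and 2.17 to 2.88 over all regions. Their median width was 307.5 to 370 bp over the libraries, beside 317 to 373 bp near protein-coding starts.

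Among the AP-1 genes, Fos, which encodes the prototype partner of JUN, had its best start region at chr12:85473439-85474188, with the summit 320 bp upstream. Its percentiles were 63.0, 68.0 and 65.9 in the PBS libraries, 63.7, 57.9 and 60.9 in PFF, 62.2, 72.6 and 66.2 in PFF+MLi-2, and 58.9, 63.0 and 60.9 in PFF+Rab5 ASO. All PFF+Rab5 ASO libraries were below all PBS libraries, by a narrow margin, and every other pair of groups overlapped. A second region 696 bp into the gene was low, with group means of 14.1 ± 6.23, 12.5 ± 2.42, 14.8 ± 11.5 and 27.2 ± 7.35 (SD, n = 3 each, in the order PBS, PFF, PFF+MLi-2, PFF+Rab5 ASO, which holds for all lists of group means here).

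Fosb, a FOS relative with a long-lived splice form in brain, had its highest start region at chr7:19308107-19308900, inside the gene. The percentiles were 79.9, 84.7 and 81.9 in PBS, 80.3, 77.9 and 80.7 in PFF, 84.4, 83.8 and 82.1 in PFF+MLi-2 and 80.6, 81.5 and 74.7 in PFF+Rab5 ASO. Here every PFF+MLi-2 library was above every PFF library. The region with the SRE shown above, 293 bp upstream, stood at 71.1, 70.1 and 80.3 in PBS, 64.2, 65.0 and 66.7 in PFF, 74.7, 74.7 and 68.4 in PFF+MLi-2 and 71.7, 67.2 and 70.1 in PFF+Rab5 ASO. Its 3 PFF libraries were the lowest of the 12.

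Fosl2, which encodes FRA2, had 1 start region in all libraries, chr5:32134957-32136120, an opening of 1164 bp. The group means were 77.0 ± 2.45, 70.4 ± 1.65, 75.7 ± 3.82 and 77.4 ± 0.494 (SD, n = 3 each). The PFF libraries, at 72.0, 68.7 and 70.4, were below all PBS and PFF+Rab5 ASO libraries and overlapped PFF+MLi-2, whose lowest library was at 71.4.

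Jun had its start region at chr4:95052032-95052932, shared with the start of the divergent transcript Junos. It stood at 61.7, 63.9 and 69.4 in PBS, 57.3, 53.3 and 65.6 in PFF, 67.1, 72.4 and 66.2 in PFF+MLi-2 and 64.1, 71.1 and 70.1 in PFF+Rab5 ASO. Every PFF+MLi-2 library was above every PFF library, and the PBS and PFF libraries overlapped.

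Junb, which encodes a JUN relative, had the lowest of the 10 best start regions by fold. The region at chr8:84976198-84976837 had group means of 41.1 ± 5.76, 29.7 ± 4.52, 41.2 ± 3.96 and 38.8 ± 4.39. The region 118 bp upstream stood at 35.2, 43.8 and 44.9 in PBS, 33.4, 18.5 and 18.6 in PFF, 44.5, 44.5 and 38.1 in PFF+MLi-2 and 45.5, 53.5 and 25.7 in PFF+Rab5 ASO. At both regions the PFF libraries were below all PBS and all PFF+MLi-2 libraries.

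Among the other transcription factors, Egr1, a zinc-finger factor, had its best start region at chr18:34860441-34861441 with group means of 56.5 ± 4.35, 51.2 ± 2.71, 57.1 ± 3.50 and 61.0 ± 6.89. The region 124 bp into the gene was lower, at 25.0, 35.4 and 36.4 in PBS, 13.2, 15.8 and 25.7 in PFF, 35.5, 45.6 and 26.8 in PFF+MLi-2 and 32.3, 35.3 and 16.5 in PFF+Rab5 ASO. At that second region every PFF+MLi-2 library was above every PFF library.

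Npas4, a factor induced by calcium entry that shapes inhibitory synapses, had its best start region at chr19:4989815-4990308. It stood at 56.5, 65.4 and 58.8 in PBS, 51.5, 47.1 and 46.3 in PFF, 61.6, 68.6 and 54.9 in PFF+MLi-2 and 68.5, 72.5 and 70.7 in PFF+Rab5 ASO. The PFF libraries were below all 9 others, and the PFF+Rab5 ASO libraries were above all of the PBS and PFF libraries. The upstream region with the SRE shown above was much lower, at 4.78 ± 2.21 to 16.0 ± 7.69 by group.

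Nr4a1, an orphan nuclear receptor, had the highest start region of the 10 genes by fold, chr15:101253917-101254610. Its percentiles were 87.0, 85.5 and 89.7 in PBS, 87.4, 94.1 and 90.6 in PFF, 92.6, 87.7 and 89.9 in PFF+MLi-2 and 90.5, 90.5 and 92.9 in PFF+Rab5 ASO. It was the one best start region with a higher mean in PFF than in PBS. Its local background, at 3.67 to 4.79 fragments, was also the lowest among the best start regions of the transcription factor genes. A second start region 12.5 kb into the gene, at a later first exon, stood at 82.2 to 90.2 over the 12 libraries.

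Among the effector genes, Arc had its best start region at chr15:74672290-74672855, with group means of 76.0 ± 3.56, 70.8 ± 5.95, 72.5 ± 2.40 and 73.9 ± 5.18. The region with the SRE shown above, 922 bp upstream, stood at 71.5, 73.4 and 72.9 in PBS, 69.0, 60.0 and 62.3 in PFF, 70.4, 68.0 and 69.9 in PFF+MLi-2 and 63.1, 79.1 and 74.8 in PFF+Rab5 ASO. Its 3 PFF libraries lay below the 3 PBS libraries.

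Bdnf has several first exons with their own promoters, and 8 regions lay within 1 kb of its annotated starts, 5 of them in all 12 libraries. The highest was 20.3 kb into the gene, chr2:109694837-109695094, at 86.9, 85.6 and 79.8 in PBS, 83.6, 78.0 and 74.1 in PFF, 85.5, 74.5 and 76.0 in PFF+MLi-2 and 88.8, 78.5 and 82.3 in PFF+Rab5 ASO. All groups overlapped there. The region 17.7 kb into the gene, chr2:109692302-109692582, went the other way from most start regions, at 70.6, 68.1 and 73.2 in PBS, 80.7, 75.5 and 82.2 in PFF, 67.2, 87.5 and 83.8 in PFF+MLi-2 and 88.3, 81.7 and 89.5 in PFF+Rab5 ASO. Both the PFF and the PFF+Rab5 ASO libraries were above all PBS libraries, and the difference between PFF+Rab5 ASO and PBS was 0.73 on the score scale described below (limma adjusted p = 0.114). The regions 3.5, 18.9 and 2.7 kb into the gene had means over the libraries of 75.8, 66.4 and 41.3, and the 3 remaining regions, 1.6, 2.2 and 3.1 kb into the gene, were called in 3, 4 and 1 libraries.

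**Figure D2:**
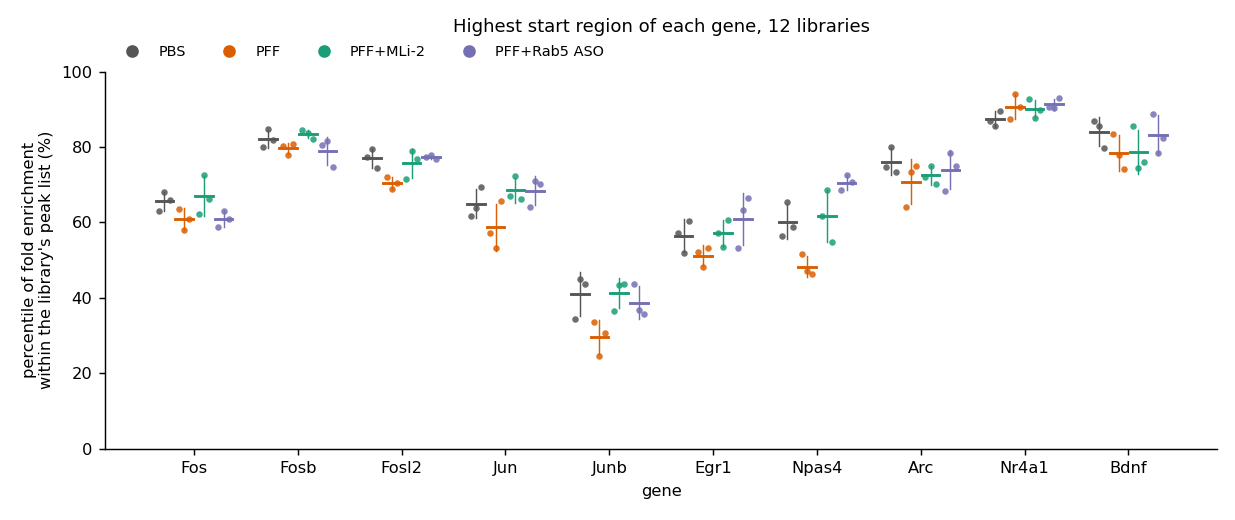
Percentile of fold enrichment within the library's own peak list (vertical axis, %) at the start region of each gene with the highest mean; points are the 12 libraries, coloured by group, horizontal bars the group means and vertical lines ± SD (n = 3). Nr4a1 is the highest gene and Junb the lowest, and at Npas4 the PFF libraries (46.3 to 51.5) lie below the other 9 (54.9 to 72.5).

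To ask whether fibrils moved these regions, ranks were compared between PFF and PBS. Start regions of the immediate early genes stood lower by fold in PFF than in PBS for 9 of the 10 genes, with a median difference of -0.29, the exception being Nr4a1 at 0.21. No single region passed the test. The difference is in standard deviations of a normal score of the rank, computed over the 72465 regions, and tested by limma with adjustment over all of them. In PFF against PBS limma called 0 of the 121 member regions and 0 of all 72465 (0%), and 7 member regions and 7044 of all had an unadjusted p under 0.05. On simulated data for this comparison, with 200 regions shifted, the test recovered 0% of shifts of 1. A count of 0 therefore does not show that differences of the size seen here were absent. The differences furthest from 0 at start regions were -0.52 at Junb 118 bp upstream (adjusted p = 0.506), -0.45 at Npas4 (0.578) and -0.43 at Egr1 124 bp into the gene (0.611). Of the 22 own-start regions, several of which share a gene, 18 were lower and 4 higher, with a median of -0.24, beside 64.3% lower and a median of -0.08 among the 18392 regions near protein-coding starts. By percentile, all PFF libraries lay below all PBS libraries in 6 of the 22 (Arc, Fosb, Fosl2, Npas4 and both regions of Junb) and above them in 2, both of Bdnf, beside 9.92% and 5.22% near protein-coding starts. On the normal score it was 4 of the 22 lower (18.2%, against 10.7%) and 0 higher (against 3.97%). By percentile over the 121 member regions, 22 lay wholly lower (18.2%), against 6.38% of all regions, and 7 wholly higher (5.79%), against 8.25%. The 121 include 46 regions at starts of other genes, and 35 of the 46 were also lower (76.1%), with a median of -0.14. By percentile 11 of the 46 (23.9%) lay wholly below PBS and 1 (2.17%) wholly above, and on the score 9 (19.6%) and 1 (2.17%). The score ranks only the regions shared by all libraries and so does not move with the length of the lists, and on it the members split into 23 lower (19.0%, against 8.0%) and 2 higher (1.65%, against 7.07%).

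The same question for LRRK2 inhibition was asked between PFF+MLi-2 and PFF. All 10 best start regions stood higher by fold in PFF+MLi-2, with a median difference of 0.37, and again no region passed the test. limma called 0 of 121 member regions and 0 of 72465 (0%), with 12 member regions and 8289 of all at an unadjusted p under 0.05. Here too a count of 0 does not show that differences were absent. The largest differences at start regions were 0.67 at Junb 118 bp upstream (adjusted p = 0.279), 0.64 at Egr1 124 bp into the gene (0.349) and 0.63 at Npas4 (0.313). Of the 22 own-start regions 21 were higher and 1, at Bdnf 18.9 kb into the gene, was lower, with a median of 0.36, beside 64.3% higher and a median of 0.09 near protein-coding starts. By percentile, all PFF+MLi-2 libraries lay above all PFF libraries in 8 of the 22 (36.4%; both regions of Egr1, Fosb and Junb, and those of Jun and Npas4), against 8.10% near protein-coding starts, and below in 0. Over the 121 member regions it was 13 higher (10.7%), against 5.23% of all regions, and 6 lower (4.96%), against 12.9%. Of the 46 at starts of other genes, 30 were higher (65.2%), with a median of 0.13. Wholly above were 2 of the 46 (4.35%) by percentile and 10 (21.7%) on the score, and wholly below 5 (10.9%) and 1 (2.17%). The PFF+MLi-2 lists are shorter, and the percentiles of the 72465 shared regions differed by a median of -1.51 points from PFF. On the score, 13 of the 22 (59.1%) lay wholly above, against 15.5% near protein-coding starts, and among the 121 members 29 (24.0%, against 10.1% of all) lay above and 2 (1.65%, against 7.55%) below. The PFF libraries are shared with the comparison to PBS, so the opposite signs are not independent. Between PFF+MLi-2 and PBS limma also called 0 member regions and 0 of all (0%), with 4 and 4179 at an unadjusted p under 0.05, and the 22 own starts had a median difference of 0.15.

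Rab5 knockdown was compared with fibrils alone in the same way, and here 1 of the 22 own-start regions (4.55%), that of Npas4, rose, beside 1.19% called near protein-coding starts and 3.83% of all regions. It was 48.3 ± 2.80 in PFF and 70.6 ± 2.02 in PFF+Rab5 ASO (SD, n = 3 each), a difference of 0.81 ± 0.19 on the score scale (SE, limma adjusted p = 0.0470). With any 1 of the 6 libraries left out the difference was 0.77 to 0.90 with an adjusted p of 0.0858 to 0.130, and by the rank of -log10 p it was 0.42, no longer called. In a fit with replicate number as a block its adjusted p was 0.0771. Of the 10 best start regions 8 were higher in PFF+Rab5 ASO, and those of Fosb (-0.05) and Nr4a1 (-0.00) were not. Of the 22 own-start regions 19 were higher, with a median of 0.29, beside 60.8% and 0.07 near protein-coding starts. By percentile, PFF+Rab5 ASO lay wholly above PFF in 7 of the 22 (31.8%), against 17.1% near protein-coding starts, and wholly below in 1, the upstream region of Npas4. On the score it was 6 above (27.3%, against 15.1%) and 0 below. By percentile over the 121 members, 25 lay above (20.7%), against 13.9% of all regions, and 11 below (9.09%), against 11.9%. On the score it was 22 above (18.2%, against 13.5%) and 9 below (7.44%, against 12.4%). Of the 46 members at starts of other genes, 33 were higher (71.7%), with a median of 0.12. Wholly above were 12 of the 46 (26.1%) by percentile and 10 (21.7%) on the score, and wholly below 3 (6.52%) by either. These PFF libraries are again the shared ones. Against PBS, the 22 own-start regions split into 11 higher and 11 lower in PFF+Rab5 ASO, with a median of -0.02.

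The differences at the start regions followed the measure used for the height of a peak. Under the rank of -log10 p the medians of the 22 regions were -0.07 in PFF against PBS, 0.06 in PFF+MLi-2 against PFF and 0.03 in PFF+Rab5 ASO against PFF. Under the rank of the summit pileup itself they were 0.02, -0.11 and -0.04, the opposite sign in each case. The rank of the local background had medians of 0.02, -0.12 and -0.10. By that rank 11 of the 22 were higher and 11 lower in PFF than in PBS, and 19 and 17 were lower than in PFF in the PFF+MLi-2 and the PFF+Rab5 ASO group. The median local background of the own starts, in fragments, overlapped between PBS (8.20 to 9.08) and PFF (8.62 to 9.78). Divided by the most frequent background of its library, the median local background of the own starts was 4.77 to 5.28 in PBS, 5.44 to 6.15 in PFF, 4.31 to 4.55 in PFF+MLi-2 and 4.05 to 4.59 in PFF+Rab5 ASO. Near all protein-coding starts the same ratio was 2.10 to 2.26, 2.32 to 2.5, 2.07 to 2.10 and 1.97 to 2.09. On that ratio the PFF libraries were above those of the other 3 groups at both sets of starts. The same held over all regions, at 1.421 to 1.459 in PFF, with the highest other library, PBS replicate 1, at 1.396. The higher ratio in PFF was thus not limited to gene starts. PFF replicates 2 and 3 also had the lowest divisors of all libraries, with most frequent backgrounds of 1.59 and 1.5 fragments. At Npas4 the pileups were 63, 66 and 59 in PBS, 68, 68 and 61 in PFF, 61, 64 and 59 in PFF+MLi-2 and 72, 72 and 65 in PFF+Rab5 ASO, on backgrounds of 10.5, 9.83 and 10.0, of 12.2, 12.1 and 10.7, of 9.45, 9.22 and 9.94, and of 11.1, 9.99 and 9.71 fragments. At this gene the background of every PFF library was above that of every PBS library, while the pileups overlapped. The part of library depth and of peak width in these differences was not tested.

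**Figure D3:**
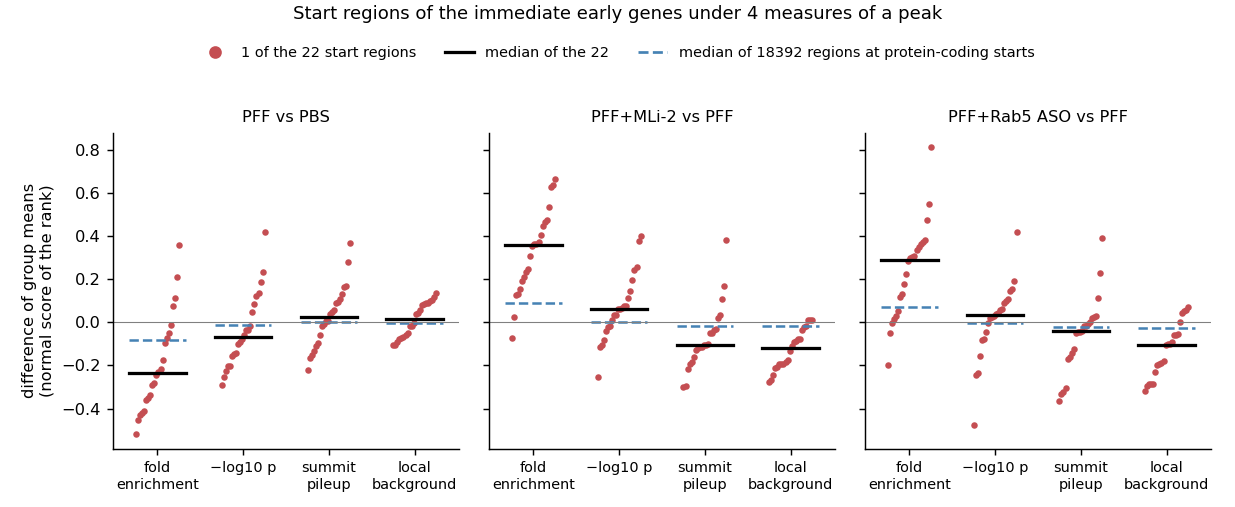
Difference of group means in the normal score of the rank (vertical axis, standard deviations) at the 22 own-start regions (points), for 4 measures of a peak and 3 comparisons (panels); black bars are medians of the 22 and dashed bars medians of the 18392 regions near protein-coding starts. By fold the medians are -0.24, 0.36 and 0.29, and by summit pileup 0.02, -0.11 and -0.04.

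Of the 121 member regions, 5 passed the test in PFF+Rab5 ASO against PFF (4.13%), 2 higher and 3 lower. The background was 3.83% of all regions, with 1.97% higher and 1.86% lower, so the share among the members is near that of all regions. Besides the start of Npas4, a region 10.4 kb upstream of Egr1 rose, at chr18:34849272-34849600 between genes. It stood at 1.56, 4.75 and 2.93 in PBS, 6.73, 1.46 and 6.06 in PFF, 7.49, 4.84 and 4.08 in PFF+MLi-2 and 35.6, 59.5 and 23.1 in PFF+Rab5 ASO. Each of the other 9 libraries was at 7.49 or less, and the PFF+Rab5 ASO summit pileup was 36, 38 and 28 fragments against 20 to 26 in the other 9. The difference was 1.29 ± 0.29 to PFF (SE, limma adjusted p = 0.0438) and 1.32 ± 0.29 to PBS (adjusted p = 0.0499). It was the 1 member region called against PBS, where the background was 1.63% of all regions. The 5 calls did not hold without single libraries: leaving out PFF replicate 1 or 2 left 1 member region called, and leaving out PFF replicate 3 or any PFF+Rab5 ASO library left 0, with 0 to 995 called among all regions. A fit with replicate number as a block left 1 call, the region near Jun described below (limma adjusted p = 0.0455). Against PBS, 0 were called without any 1 of the 6 libraries, and 0 with the block.

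The other 3 fell in PFF+Rab5 ASO. A region 41.9 kb beyond the start of Junb, chr8:84936565-84936998, lies at the start of Mast1, which encodes a microtubule-associated kinase. It stood at 36.0, 14.4 and 13.7 in PBS, 51.0, 58.3 and 45.5 in PFF, 43.7, 53.8 and 26.3 in PFF+MLi-2 and 14.8, 24.0 and 8.04 in PFF+Rab5 ASO, with a difference of -0.93 ± 0.21 (adjusted p = 0.0444). All PFF libraries were above all PBS and PFF+Rab5 ASO libraries. A region 33.1 kb upstream of Fosl2, chr5:32102563-32102802, between genes, stood at 86.8, 78.6 and 71.5 in PFF and 44.5, 50.2 and 61.3 in PFF+Rab5 ASO, with PBS at 68.4, 47.1 and 69.1 and PFF+MLi-2 at 42.7, 67.4 and 77.2. Its difference was -1.07 ± 0.26 (adjusted p = 0.0496).

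The third is 50.6 kb beyond the start of Jun, chr4:95001421-95001699, in an intron of Gm12694. Its window holds 2 copies of the AP-1 heptamer TGANTCA, in capitals, the element that FOS and JUN proteins bind, and it is shown because it is the 1 called member region with that element.
Jun, 50.6 kb beyond the start, chr4:95001484-95001684, minus strand: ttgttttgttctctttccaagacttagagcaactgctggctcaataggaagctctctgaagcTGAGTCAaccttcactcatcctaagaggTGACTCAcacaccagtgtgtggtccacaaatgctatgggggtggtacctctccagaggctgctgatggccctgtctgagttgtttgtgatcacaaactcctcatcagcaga

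That region stood at 72.9, 77.7 and 62.8 in PBS, 76.9, 62.1 and 75.7 in PFF, 69.3, 28.7 and 91.8 in PFF+MLi-2 and 48.0, 28.3 and 41.7 in PFF+Rab5 ASO. The difference to PFF was -1.05 ± 0.25 (SE, limma adjusted p = 0.0466), and that to PBS was -1.08 (adjusted p = 0.0591). The pileup was only 11 to 27 fragments per library, which leaves wide counting error, and the PFF+MLi-2 libraries spread over most of the range.

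Over all 4 groups a moderated F test in limma called 2 of the 121 member regions, against 3.50% of all, and 0 to 3 when 1 library was left out, with 0 for each PFF+Rab5 ASO library. With replicate number as a block 1 member region was called, and likewise 1 by the rank of -log10 p. The 2 were the regions 10.4 kb upstream of Egr1 (F = 10.7, adjusted p = 0.0333) and 41.9 kb from Junb (F = 8.77, adjusted p = 0.0484), in the fit without a block. The next were an intronic region 48.2 kb into Bdnf (adjusted p = 0.0535), with PFF+MLi-2 lowest at 39.9, 39.6 and 31.7 and PFF+Rab5 ASO highest at 86.0, 70.3 and 75.9, and a region 8.4 kb beyond the start of Npas4 (adjusted p = 0.0582). The Npas4 region, chr19:4981868-4982067, stood at 70.4, 58.3 and 69.0 in PBS, 57.9, 27.3 and 36.7 in PFF, 71.4, 81.0 and 63.7 in PFF+MLi-2 and 53.2, 68.2 and 66.9 in PFF+Rab5 ASO. The PFF libraries were all below those of PBS and of PFF+MLi-2, but no pairwise difference passed (-0.87 to PBS, adjusted p = 0.306, and 1.22 from PFF to PFF+MLi-2, adjusted p = 0.210). As at the start of the gene, the pileup overlapped between PBS (26 to 32) and PFF (25 to 32) while the local background was 3.81 to 4.02 in PBS and 4.36 to 5.70 in PFF. The fifth was an intronic region 6.3 kb into Nr4a1 (adjusted p = 0.0726).

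**Figure D4:**
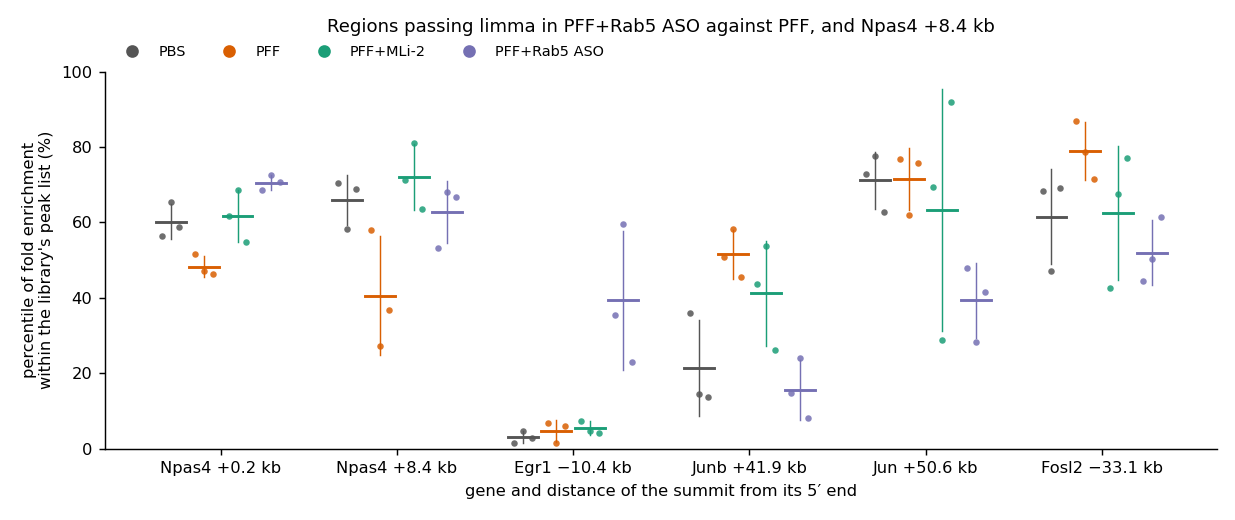
Percentile of fold enrichment within the library's own peak list (vertical axis, %) at the 5 member regions that passed limma in PFF+Rab5 ASO against PFF and at the region 8.4 kb from Npas4, which did not; points are the 12 libraries, bars the group means and vertical lines ± SD (n = 3). At the Egr1 region the PFF+Rab5 ASO libraries (23.1 to 59.5) lie above the other 9, which are at 7.49 or less.

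AP-1 is the dimer that the Fos and Jun genes encode, so regions that hold its heptamer were compared with the rest as its possible targets. Among the regions over 1 kb from every start, 5541 held the heptamer and 45831 did not. In PFF+Rab5 ASO against PFF, 412 with the heptamer passed limma, and of these 317 were lower and 95 higher (76.9% lower). Without it 2053 passed, of which 908 were lower and 1145 higher (44.2% lower). The median difference was -0.16 with the heptamer and -0.01 without, and -0.15 and -0.00 by the rank of -log10 p. Against PBS the called regions with the heptamer were 81 lower and 37 higher, and those without 332 lower and 601 higher, with the same PFF+Rab5 ASO libraries in both comparisons. In PFF against PBS and in PFF+MLi-2 against PFF none was called, and the medians with the heptamer were 0.06 and -0.06. Among the members, the 6 regions with the heptamer had a median of -0.17 in PFF+Rab5 ASO against PFF, and that near Jun was the 1 called. Without PFF+Rab5 ASO replicate 1 no region at all was called, and 333 to 995 were without each of the other libraries, while the median with the heptamer ran from -0.18 to -0.13 over these 6 fits. No binding of AP-1 was measured, and many factors share its letters.

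Presence alone was compared next: a gained region had peaks in 3 of 3 libraries of the first group and in 0 of 3 of the second, and a lost region the reverse. There is no test per region here, since with 3 libraries a side the smallest exact p is 0.1. In PFF against PBS 2 of 226 member regions with a peak in either group were gained and 0 lost, beside 1.10% and 0.405% of all regions. The gained regions lay 30.7 kb upstream of Jun and 43.1 kb from Junb, in an intron of Mast1, and both were low, at 24.3 ± 11.9 and 1.74 ± 1.14 in PFF. In PFF+MLi-2 against PFF 0 of 229 were gained and 1 lost, against 0.374% and 1.64%. The lost region was 28.9 kb beyond Arc, at 26.2 ± 8.74 in PFF. Between PFF+MLi-2 and PBS 0 of 210 were gained and 0 lost (0.225% and 0.577% of all). These counts are near what the whole list gives.

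In PFF+Rab5 ASO against PFF 5 of 235 were gained and 4 lost, beside 2.64% and 1.94% of all, and against PBS 6 of 223 were gained and 2 lost, beside 2.59% and 0.991%. The highest gained region was 12.4 kb beyond the start of Arc, chr15:74660050-74660301, at 78.1, 67.9 and 79.6 in the PFF+Rab5 ASO libraries, 8.30 in 1 PFF+MLi-2 library and without a peak in the other 8. Regions 47.7 kb upstream of Bdnf (48.0, 70.3 and 57.6), 69.1 kb beyond its start (60.7, 39.3 and 50.4) and 31.1 kb upstream of Fos (58.6, 55.4 and 15.6) were called in those 3 libraries alone. Near Junb a region at the start of Hook2 was gained against PFF only, and regions near Fosb, at the start of Gm26802, and 26.9 kb beyond Egr1 were gained against PBS only. A region 28.7 kb upstream of Fosb had peaks in all 9 other libraries, at 37.2, 43.1 and 45.3 in PBS, 33.8, 17.1 and 15.7 in PFF and 74.8, 60.0 and 58.9 in PFF+MLi-2, and in no PFF+Rab5 ASO library. The other losses were the Junb and Arc regions named above and a region 26.9 kb upstream of Arc against PFF, and a region 14.0 kb beyond Jun against PBS. The bases of the gained regions of Arc, Bdnf and Fos are shown because they are, for each of these genes, the highest region gained in PFF+Rab5 ASO, though that of Fos was low in the third library, with a pileup of 11. The Bdnf window holds 1 AP-1 heptamer, in capitals, and the other 2 hold none of the motifs searched.
Arc, 12.4 kb beyond the start, chr15:74660048-74660248, minus strand: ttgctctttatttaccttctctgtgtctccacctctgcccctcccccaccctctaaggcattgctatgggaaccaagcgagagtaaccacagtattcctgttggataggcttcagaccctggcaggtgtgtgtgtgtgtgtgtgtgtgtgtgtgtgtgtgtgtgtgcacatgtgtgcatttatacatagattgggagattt
Bdnf, 47.7 kb upstream, chr2:109626883-109627083, plus strand: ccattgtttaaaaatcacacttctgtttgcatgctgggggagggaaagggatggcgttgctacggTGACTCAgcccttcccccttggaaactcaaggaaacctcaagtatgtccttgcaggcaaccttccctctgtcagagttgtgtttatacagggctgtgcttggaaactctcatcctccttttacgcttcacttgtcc
Fos, 31.1 kb upstream, chr12:85442678-85442878, plus strand: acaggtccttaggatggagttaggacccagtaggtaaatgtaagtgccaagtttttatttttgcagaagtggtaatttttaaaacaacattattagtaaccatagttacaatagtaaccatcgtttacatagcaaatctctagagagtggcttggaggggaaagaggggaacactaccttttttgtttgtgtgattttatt

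**Figure D5:**
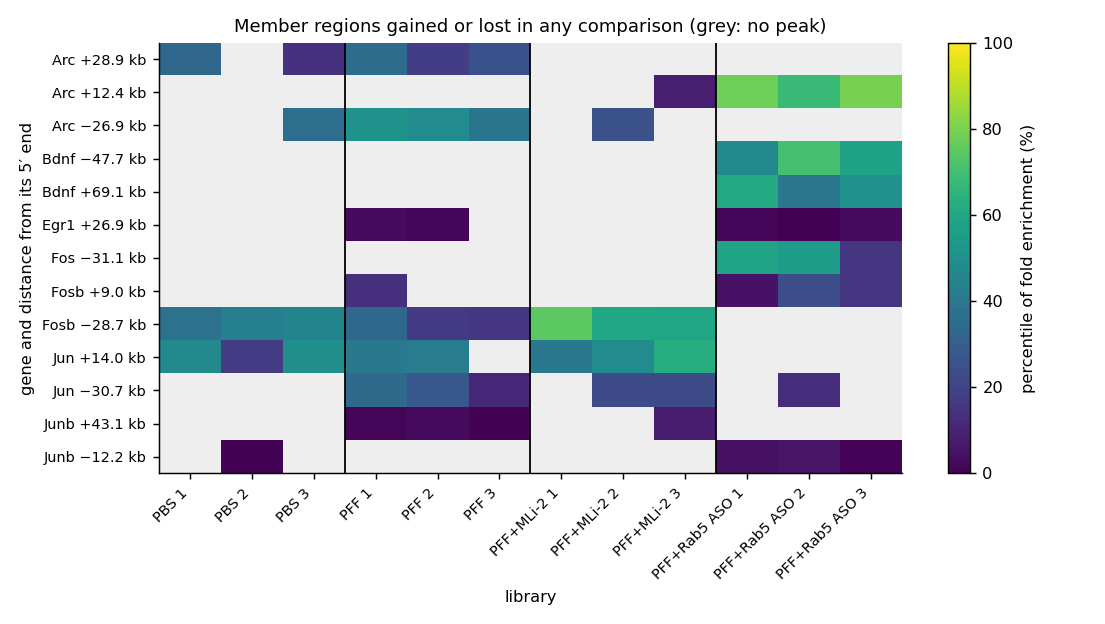
Percentile of fold enrichment (colour, %) in each of the 12 libraries (horizontal axis) of the member regions that were gained or lost in any comparison (vertical axis, named by gene and distance from its 5′ end); grey cells have no peak. Peaks of Bdnf at 47.7 kb upstream and 69.1 kb, and of Fos at 31.1 kb upstream, are in PFF+Rab5 ASO libraries alone, Fosb 28.7 kb upstream has peaks in all but those, and Arc at 12.4 kb is higher there (67.9 to 79.6) than in the 1 other library with a peak. The remaining regions share their state with at least 1 library of another group.

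Away from gene starts, several regions were among the highest peaks of every list. Near the top of a list the percentile has little room to move, so close values there do not show that heights were alike, and none of the distal regions given here passed limma. A region 10.0 kb upstream of Fosb, chr7:19319447-19320294, stood at 98.2 ± 0.631, 98.6 ± 0.168, 98.7 ± 0.345 and 97.4 ± 0.636, and its PFF+Rab5 ASO libraries (96.7, 97.7 and 97.8) were below all PFF and all PFF+MLi-2 libraries. The region 11.6 kb upstream of Npas4 shown above was at 96.1 ± 0.415, 95.3 ± 0.575, 95.4 ± 0.520 and 95.8 ± 1.95, and so far above the start of the same gene. A region 7.9 kb upstream of Nr4a1 was at 94.7 ± 0.416, 94.3 ± 0.781, 95.8 ± 1.48 and 95.1 ± 1.14. Around Fos, the regions 18.5 kb upstream and 12.2 kb beyond the start stood at 92.6 and 89.5 as means over the libraries, and at the first all PFF libraries were below those of PFF+Rab5 ASO and of PFF+MLi-2. Upstream of Arc, the regions at 20.9, 19.9 and 6.7 kb stood at 91.1, 87.6 and 87.0. At 20.9 kb all PFF libraries (90.1, 95.9 and 93.4) were above all PBS libraries (88.5, 83.9 and 89.6), on pileups of 26, 32 and 29 against 26, 22 and 25 fragments. At 19.9 kb, by contrast, all PFF libraries (77.5, 87.7 and 84.9) were below all PBS libraries (91.1, 89.8 and 90.2). The region 27.7 kb beyond Egr1 stood at 89.6, and those beyond Jun (28.6 kb, 86.0) and Fosl2 (62.1 kb, 82.7), at Bdnf (94.3 kb, 73.6) and at Junb (7.5 kb upstream, 72.7) were lower than all of these. Of the 53 member regions over 1 kb from every start and present in all libraries, 29 were lower in PFF than in PBS (54.7%), with a median of -0.08, beside 48.5% and a median of 0.01 for all 51429 such regions. By percentile PFF lay wholly above PBS in 4 of the 53 (7.55%, against 9.36% of such regions) and wholly below in 5 (9.43%, against 5.15%). On the score it was 1 above (1.89%, against 8.19%) and 10 below (18.9%, against 7.05%). In PFF+MLi-2 against PFF 38 of the 53 were higher (71.7%), with a median of 0.15, beside 47.2% and -0.02, and in PFF+Rab5 ASO against PFF 32 were higher (60.4%), with a median of 0.07, beside 47.7% and -0.03. By percentile PFF+MLi-2 lay wholly above PFF in 3 (5.66%, against 4.22%) and below in 1 (1.89%, against 14.6%). PFF+Rab5 ASO lay wholly above PFF in 6 (11.3%, against 12.8%) and below in 7 (13.2%, against 13.8%).

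The wider activity programme was read from 25 other immediate early genes, such as Egr3, Nr4a2, Dusp1 and Homer1, and from 11 regulators, such as Creb1, Srf and Mef2c, each at its highest start region. A region was present in all 12 libraries for 23 of the 25 and 11 of the 11. Of the 23, none passed limma in any comparison with PFF, 21 stood lower in PFF than in PBS (median -0.17), 20 higher in PFF+MLi-2 than in PFF (median 0.26) and 17 higher in PFF+Rab5 ASO than in PFF (median 0.16). Of the 11 regulators none passed either, and 9 were lower, 10 higher and 10 higher in turn, with medians of -0.05, 0.22 and 0.11. The 9 neuronal markers, which are no activity genes, were lower in PFF than in PBS in 9 of 9 (median -0.14) higher in PFF+MLi-2 than in PFF in 8 of 9 (median 0.28) and higher in PFF+Rab5 ASO than in PFF in 7 of 9 (median 0.33). The 3 astrocyte markers open in all libraries were lower in PFF than in PBS in 3 of 3 (median -0.27), and 2 of 3 were higher in PFF+MLi-2 than in PFF (median 0.22) and in PFF+Rab5 ASO than in PFF (median 0.07). Of the 3 oligodendrocyte lineage markers 2 were lower and 1 higher in PFF than in PBS (median -0.14), 2 of 3 were higher in PFF+MLi-2 than in PFF (median 0.13) and 1 of 3 in PFF+Rab5 ASO than in PFF (median -0.02). None of these markers passed limma.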

How the data were processed

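The 12 libraries, 3 in each of 4 groups, were profiled by ATAC-seq. Per the submitters' processing notes and the study's methods, the authors checked reads with FastQC, trimmed adapters (Trim Galore 0.6.7), mapped to GRCm38 (Bowtie2 2.5.1, default settings) and ran MACS2 2.2.7.1 separately for every library. Peak calling options, removal of duplicates and any Tn5 shift are not given in the sources used here, and each would move the height and width of peaks. Each peak in the deposited lists has a fold enrichment (a ratio over local background), -log10 values of p and of q, and a score that was not used. No table of read counts was used here, so the study's count-based test was replaced by a test on ranks. The authors' fold and -log10 p together gave back the local background and the summit pileup, which was a whole number of fragments (within 0.02) for 100% of peaks.

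The 1916151 peaks were merged at 1 bp of overlap, and a library's value in a region is its peak of highest fold. Genes were from GENCODE vM21 and starts were all annotated transcript starts. Over 72465 regions with a peak in all libraries, fold ranks were turned into normal scores (offset 0.375) and tested with limma 3.58.1 in R 4.3.3, pairwise on 6 libraries and by a moderated F test on 12, at a Benjamini-Hochberg adjusted p under 0.05 over all regions. On simulated data with 200 shifted regions, a shift of 2 was recovered in 72% (PFF vs PBS) and 73% (PFF+Rab5 ASO vs PFF), and a shift of 1 in 0%. Only 200 of the 72465 regions were shifted, whereas 2772 were called in the data of PFF+Rab5 ASO against PFF. The simulated setting therefore differs from that comparison, where smaller differences were called. Other steps used Python 3.11.15, numpy 2.4.6, pandas 2.3.3, scipy 1.17.1, pysam 0.24.0 and matplotlib 3.10.9.

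The members, lists and tests were chosen with earlier results of these data known. Regions named with values were the highest start region of each gene and every start region of Bdnf, those gained, lost or called by limma, the 2 highest regions of each gene over 1 kb from every start, and the 5 with the smallest p over the 4 groups. The other start regions, the region 6.7 kb upstream of Arc and the comparison of regions by the AP-1 heptamer were added after their values were seen. Alternatives were equal list lengths, a -log10 q of at least 5, merging at 50 bp, 10 kb windows, log2 fold, rank of -log10 p, other sets of tested regions, a replicate block and leaving out each library.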

Additional observations from a re-analysis of the deposited data

How the results depend on the processing

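Gained and lost member regions depended on the window and the list. With windows of 10 kb, 0 were gained in PFF against PBS, 0 lost in PFF+MLi-2 against PFF, 1 gained and 0 lost in PFF+Rab5 ASO against PFF, and 2 gained and 0 lost against PBS, by the construction of fewer regions. The shares of all regions do not change with the window. With lists of equal length 1 was gained in PFF against PBS, 0 lost in PFF+MLi-2 against PFF and 4 lost in PFF+Rab5 ASO against PBS. The shares of all regions were 1.02%, 1.07% and 1.67% in turn, the last up from 0.991%. With a -log10 q of at least 5 there were 1 gained in PFF against PBS (1.35% of all regions) and 5 lost in PFF+MLi-2 against PFF (1.83%). In PFF+Rab5 ASO against PFF 3 were gained (2.39%) and 7 lost (2.31%). Against PBS, 1 was lost in PFF+MLi-2 (0.456%) and 4 of 177 in PFF+Rab5 ASO (0.963%). The cause was not tested. Leaving out each library, where 2 of 2 libraries then suffice for a call, gave 2 to 8 gained and 0 to 1 lost in PFF against PBS, 0 to 2 and 1 to 9 in PFF+MLi-2 against PFF, 5 to 9 and 5 to 10 in PFF+Rab5 ASO against PFF, 0 to 2 and 0 to 3 in PFF+MLi-2 against PBS, and 7 to 9 and 2 to 7 in PFF+Rab5 ASO against PBS. The shares of all regions rose too, for example without PFF replicate 3 to 2.58% gained in PFF against PBS, 3.72% lost in PFF+MLi-2 against PFF and 3.73% lost in PFF+Rab5 ASO against PFF. Member regions called by limma in PFF+Rab5 ASO against PFF went from 5 to 1 by the rank of -log10 p, 2 over regions present in the 6 libraries and 1 within 10 kb, and to between 0 and 1 with a library left out. Calls over all regions went from 2772 to 1899 by -log10 p, 2588 over regions of the 6 libraries and 0 to 995 with a library left out. Against PBS the member calls went from 1 to 3 by log2 fold, and to 0 by -log10 p, over regions of the 6 libraries, within 10 kb and with each library left out. Over all regions the calls went from 1184 to 2542 by log2 fold, 347 by -log10 p, 1268 over regions of the 6 libraries and 0 to 35 with a library left out. Over 4 groups the member calls went from 2 to 1 by -log10 p and 0 within 10 kb, and ranged from 0 to 3 with a library left out. Over all regions they went from 2535 to 2313 by -log10 p and ranged from 277 to 2206 with a library left out. In the comparisons of PFF with PBS and PFF+MLi-2 with PFF or PBS the count stayed at 0 under each of these. Replicate numbers were also used as a block: the replicate block left 1 call against PFF, 0 against PBS and 1 over 4 groups, and 1671 of all regions against PFF. The labels tie no number to a pregnancy. Same-numbered libraries correlated by 0.00514 to 0.0788, and in 33 of 36 cases the best partner in another group had the same number. Whether the libraries were paired is thus not settled, and the calls that the block did not keep depend on it. Of 60 alternatives of called single effects, 60 kept their direction and 10 stayed under 0.05. The median of the own-start regions ran from -0.33 to -0.17, 0.26 to 0.38 and 0.21 to 0.31 with a library left out (PFF against PBS, PFF+MLi-2 against PFF, PFF+Rab5 ASO against PFF). With measures added after seeing the data it was -0.066, 0.061 and 0.034 by -log10 p, and it reversed to 0.023, -0.11 and -0.040 by summit pileup. By the rank of local background it was 0.02, -0.12 and -0.10. The median summit pileup of a library was 16 to 18 fragments, so at this depth the presence of a peak in a single library carries wide counting error.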

Other observations

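Other motifs of the activity pathway were read over all regions present in the 12 libraries. Of 812 regions with a MEF2 element, 27 were called higher and 7 lower by limma in PFF+Rab5 ASO against PFF, with a median difference of 0.08. Of 673 regions with an SRE, 13 were called higher and 5 lower, with a median of 0.02, and of 8905 regions with the CRE core 96 were higher and 150 lower, with a median of 0.03. Over all 72465 regions 1426 were higher and 1346 lower. Without PFF+Rab5 ASO replicate 1, 0 regions were called by limma, with 13514 at an unadjusted p under 0.05. These comparisons were chosen after the values were seen and no cause was tested.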
